A study of Mus musculus with 36 samples.

Results

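The genes described here encode 10 secreted or shed growth factor ligands, among the 46078 genes of the count table: Kitl, Alkal1, Fgf2, Fgf7, Pdgfa, Pdgfb, Pdgfc, Hbegf, Hgf and Vegfa. They were found by matching Ensembl mouse identifiers to these symbols, and all 10 had an identifier. The set was chosen by a comparison of their CPM over the 10 lines. Their levels and fold changes are therefore a description, and no p-value is given for them. RNA was measured by BRB-seq, which counts the 3' ends of polyadenylated transcripts, in 36 libraries of cultured astrocytes from mice. Every line was labelled Nf1-/- DNp53, that is, without Nf1 and with a dominant-negative p53, was called transformed, and was grown in medium with fetal bovine serum. The 5 female lines and the 5 male lines came from lots 6, 7, 8, 11 and 12, with 1 line of each sex per lot. The labels also give the lot as the batch, and the study's design text says that the lots are separate litters. Each line was sequenced as 3 libraries in lots 6 and 12 and as 4 in the others. No untransformed or Nf1 wild-type cells were analysed here, and the age of the animals is not given in the sources used here. With 1 line per sex and lot, a difference between the sexes in a lot cannot be told apart from a difference between 2 lines.

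All of these proteins signal through receptor tyrosine kinases, which dimerise when a ligand binds and switch on Ras, the ERK cascade and the PI3 kinase pathway. Neurofibromin, the product of Nf1, turns Ras off below these receptors. Cells without it are less able to end such a signal. In the brain, astrocytes and astrocyte-derived tumour cells are known as sources of several of these factors, which act on vessels, on oligodendrocyte precursors, on microglia and on the secreting cells themselves. Several are made in an inactive or membrane-bound form and need a protease to be set free, and several are held near the cell by heparan sulfate.

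Library totals ran from 4358098 to 7562901 counts, and 3 counts in a library amounted to 0.397 to 0.688 CPM, the unit of all levels below, for which library sizes were scaled by the TMM factors of edgeR. The replicate 4 libraries of lots 7, 8 and 11, 6 in all, stood apart from the rest by mitochondrial mRNA, which made up 0.251% to 0.349% of their counts, against 0.461% to 0.775% in the other 30 libraries. Some of what their removal changed is given beside the results, as an alternative chosen after seeing the data. Nf1 itself had line means of 0.666 to 2.60 CPM, and a tag at the 3' end does not test a deletion elsewhere in the gene. Of 12 astrocyte markers, 5 averaged over 1 CPM, led by the gap junction gene Gja1 at 144 CPM. The defining marker Gfap had line means of at most 0.498 CPM, Aqp4 of at most 0.712 CPM, and Gjb6 had no count. The marker lists of other cell types summed as follows over their genes, as ranges of the female and of the male lines. They were 197 to 789 and 134 to 1000.5 CPM for fibroblasts (7 of 12 markers over 1 CPM, Lum and Fap at 0), and 1849 to 14809.5 and 1345 to 10976 CPM for pericytes and smooth muscle (2 of 8, Kcnj8 and Abcc9 at 0). They were 2.32 to 16.9 and 3.31 to 17.2 CPM for endothelium (1 of 8, Cldn5 at 0), 3.97 to 11.2 and 2.71 to 8.48 CPM for microglia and macrophages (2 of 12, with Itgam, Adgre1, C1qa and Trem2 at 0), and 4.67 to 32.5 and 8.98 to 20.0 CPM for oligodendrocyte precursors (2 of 8, Olig2 and Sox10 at 0). For neurons they were 9.22 to 68.8 and 20.6 to 76.2 CPM (3 of 8, Rbfox3 and Snap25 at 0), and for neural progenitors 162 to 211 and 101 to 256 CPM (4 of 9, Hes5 at 0).

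Hgf was all but absent, and the other ligands fell into 4 kinds of pattern. Kitl was lower in the female line of every lot. Alkal1, Fgf7 and Vegfa were higher in the female lines of lots 6 and 7 and lower, or little different, in those of lots 8, 11 and 12. Fgf2, Pdgfb and Hbegf ran the other way for the most part, with lower values in the lot 6 female line and higher values in the female lines of lots 8 and 11. Pdgfa and Pdgfc had the smallest spans of the 9 measured over the lines, 1.69-fold and 1.64-fold, and differed most in lot 7. In bulk RNA, fewer cells that express a gene and less RNA per cell cannot be told apart, and this holds for every level that follows.

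**Figure D1:**
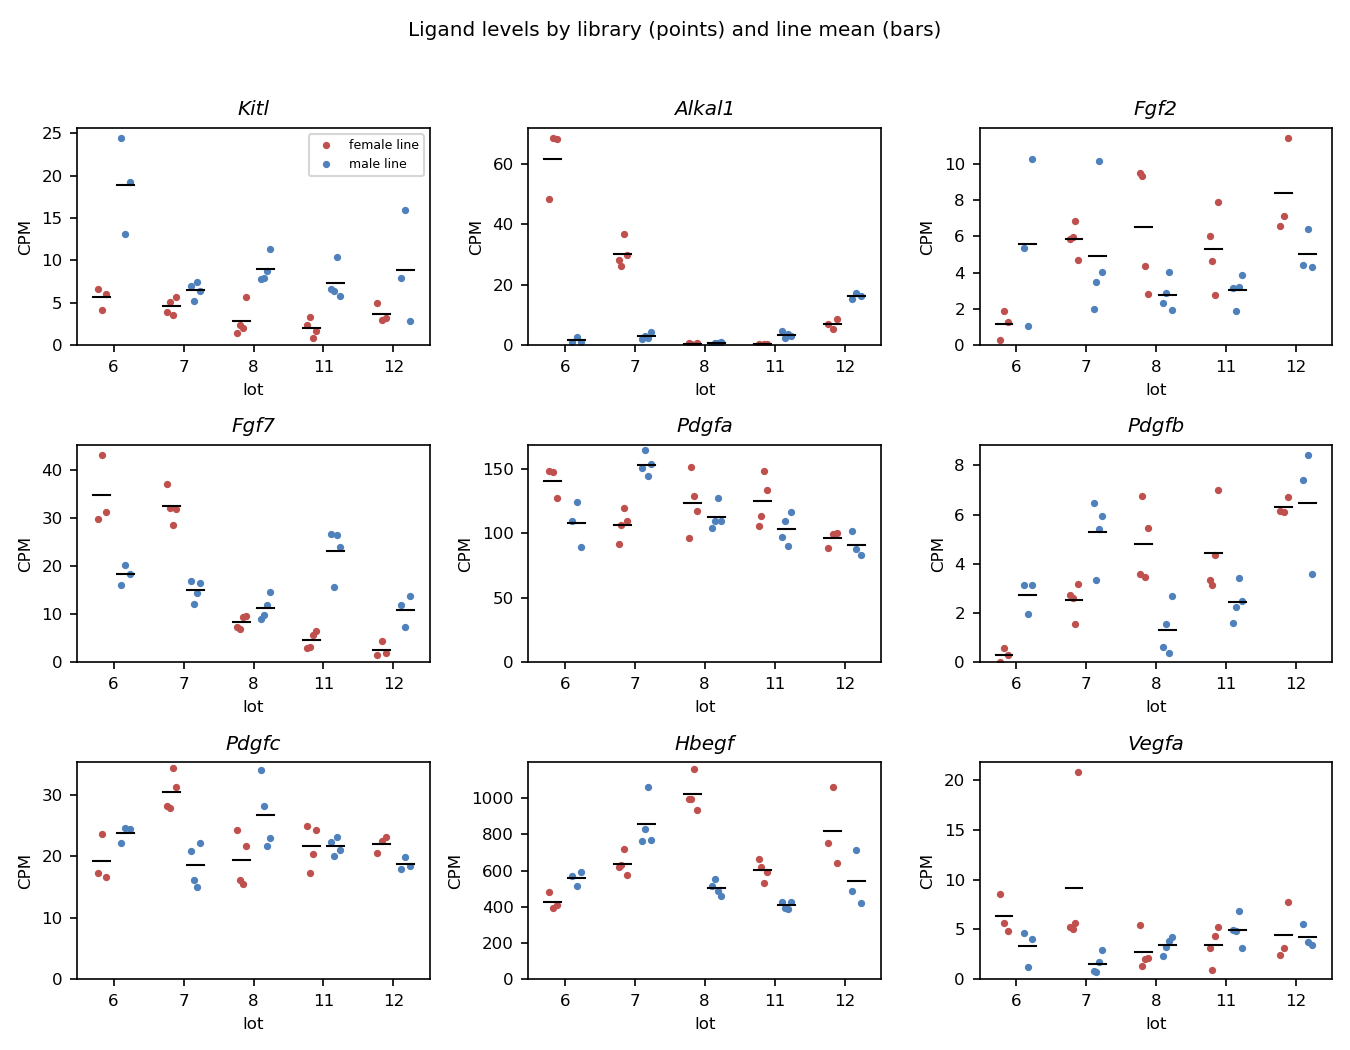
Levels of 9 ligands in CPM (vertical axes, each from 0) by lot (horizontal axis), with each library as a point, each line mean as a bar, female lines in red to the left of male lines in blue. The Kitl bar is lower in the female line of each lot, while Alkal1 reaches a mean of 61.8 CPM in the lot 6 female line and stays under 1 CPM in both lines of lot 8.

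Kitl encodes stem cell factor, the ligand of the receptor Kit, which is made both as a soluble and as a membrane-bound protein and supports melanocytes, mast cells, germ cells and blood progenitors. It lies on chromosome 10 at 100015630 to 100100416 on the plus strand (GRCm38). In lot 6 its level was 6.67, 4.17 and 6.00 CPM in the female libraries, against 24.4, 13.1 and 19.3 CPM in the male libraries. In lot 8 the female libraries had 1.43, 2.40, 2.00 and 5.62 CPM, against 7.80, 7.89, 8.79 and 11.4 CPM in the male ones. In lot 11 they had 2.34, 3.28, 0.869 and 1.71 CPM, against 6.64, 6.37, 10.4 and 5.76 CPM in the male ones. In these 3 lots every female library was below every male library. The lot 7 libraries overlapped, with 3.91, 5.07, 3.59 and 5.71 CPM in the female line and 6.93, 5.20, 7.46 and 6.37 CPM in the male line. So did those of lot 12, with 4.93, 2.97 and 3.20 CPM in the female line and 7.88, 16.0 and 2.83 CPM in the male line, where male replicate 3 was as low as the female libraries.

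As log2 fold changes of female over male with their standard errors, the Kitl differences were -1.75 ± 0.44, -0.50 ± 0.39, -1.62 ± 0.41, -1.80 ± 0.41 and -1.26 ± 0.45 in lots 6, 7, 8, 11 and 12. The lot 12 value was -0.50 without male replicate 2 and -1.70 without male replicate 3. The 5 female lines had a mean of 3.76 ± 1.40 CPM, against 10.1 ± 5.04 CPM for the 5 male lines (SD over line means), and the fold change over the 10 line sums was -1.38 ± 0.24. Of all 12173 genes fitted within lots, 4.93% were lower in the female line of all 5 lots by sign, and 9.73% had the same sign in all 5. Over the 10 lines, the split by sex took up 63.8% of the sum of squares of Kitl's log2 CPM, against a median of 7.68% over all genes, a value that the choice of the gene can raise.

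The genes of chromosome 10 as a whole were also lower in the female lines. Over its 257 genes whose log2 CPM averaged 4 or more, the median log2 fold change was -0.64, -0.19, -0.11, -0.11 and -0.36 in lots 6, 7, 8, 11 and 12. Over all genes at that level the medians were between -0.065 and 0.0041. Kitl lay below the median of its chromosome in each lot, by more than its standard error in lots 6, 8, 11 and 12 and by less in lot 7. The part of the chromosome-wide shift in the difference of Kitl was not tested. The 3 genes whose log2 CPM over the 10 lines was most like that of Kitl were Gid4 on chromosome 11 (Pearson r = 0.93), and Nudt4 (r = 0.90) and Cactin (r = 0.90) on chromosome 10. These and all other correlations here run over 10 line sums that share libraries and depth, and they are given as a description.

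**Figure D2:**
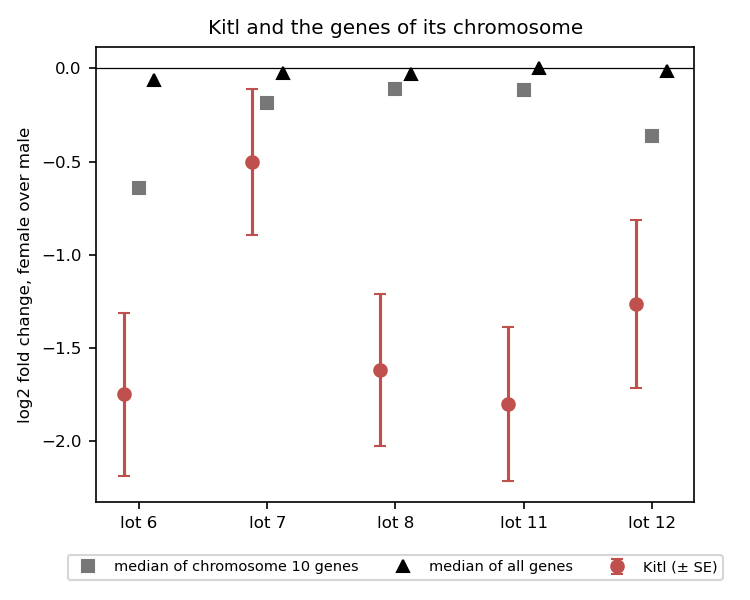
Log2 fold change of female over male (vertical axis) in each lot (horizontal axis) for Kitl with its standard error (red circles), for the median of 257 genes of chromosome 10 (grey squares) and for the median of all genes (black triangles). Kitl is below the median of its chromosome in all 5 lots, from -0.50 in lot 7 to -1.80 in lot 11.

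Alkal1 encodes a small secreted ligand of the receptors Alk and Ltk. It lies on chromosome 1 at 6359218 to 6394731 on the plus strand, and it differed more between the lines than nearly any other gene. In lot 6 the female libraries had 48.3, 68.5 and 68.4 CPM, against 1.11, 2.65 and 1.05 CPM in the male libraries. In lot 7 the female libraries had 28.3, 26.2, 36.8 and 29.9 CPM, against 2.16, 3.03, 2.22 and 4.29 CPM in the male libraries. In both lots every female library exceeded every male library by a wide margin. In lots 11 and 12 the order was turned round, without overlap. The lot 11 female libraries had 0.334, 0.137, 0.521 and 0.465 CPM, against 4.58, 2.24, 3.60 and 3.11 CPM in the male ones. The lot 12 female libraries had 7.02, 5.34 and 8.75 CPM, against 15.3, 17.4 and 16.4 CPM in the male ones. Lot 8 had almost none, with 8 counts in all female libraries together and 12 in the male ones.

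For Alkal1 the log2 fold changes were 5.26 ± 0.41, 3.36 ± 0.32, -0.49 ± 0.64, -3.18 ± 0.47 and -1.22 ± 0.34 in lots 6, 7, 8, 11 and 12. Between the lowest line mean, 0.364 CPM in the lot 11 female line from 9 counts, and the highest, 61.8 CPM in the lot 6 female line, the span was 169.5-fold. The SD of its log2 CPM over the lines was 2.51, and 0.125% of genes had a larger one. The mean of the 5 female lines was 20.0 ± 26.4 CPM, against 4.96 ± 6.46 CPM for the 5 male lines (SD over line means), a difference smaller than the SD of the female lines, and the fold change over the line sums was 0.81 ± 1.42. The lines with most Alkal1 were also those with most RNA of the pericyte and smooth muscle list, nearly all of it from the contractile gene Acta2. That list summed to 14809.5, 7991, 10976 and 7901.5 CPM in the 4 lines with the highest Alkal1 (the lot 6 female, lot 7 female, lot 12 male and lot 12 female lines). It summed to 1345 to 4859.5 CPM in the other 6. Without Acta2 it was 3.89 to 59.9 CPM, and its part in the pattern of Alkal1 was not tested. The genes most like Alkal1 over the lines were the transcription factor gene Klf3 (r = 0.97), Dysf (r = 0.96) and Trafd1 (r = 0.96).

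**Figure D3:**
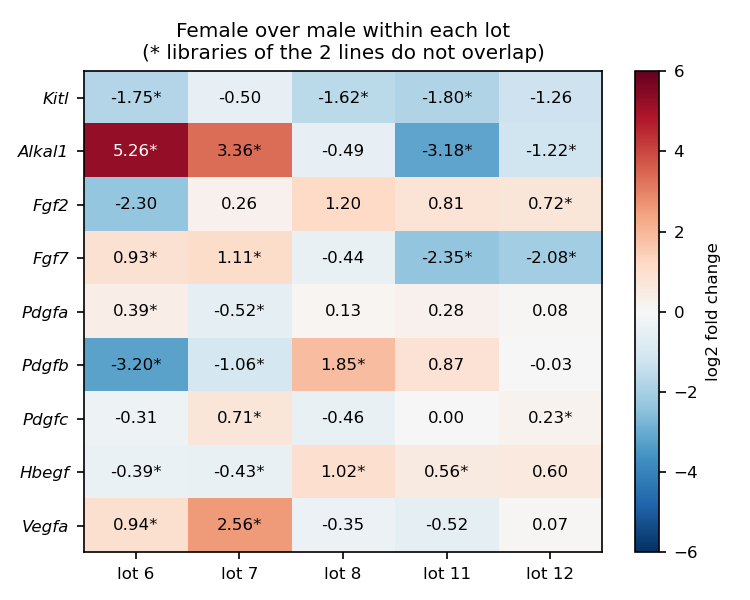
Log2 fold change of female over male for 9 ligands (vertical axis) in each lot (horizontal axis), with the value printed in each cell, red for higher and blue for lower in the female line, and an asterisk where the libraries of the 2 lines do not overlap. Only Kitl has the same sign in all 5 lots among these 9 genes, and Alkal1 spans the widest range, from 5.26 in lot 6 to -3.18 in lot 11.

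Fgf7, also called keratinocyte growth factor, is a factor that mesenchymal cells make for epithelial cells, which receive it through a splice form of Fgfr2. It lies on chromosome 2 at 126034658 to 126091185 on the plus strand. In lot 6 the female libraries had 29.8, 43.0 and 31.3 CPM, against 16.1, 20.2 and 18.4 CPM in the male libraries, and in lot 7 they had 37.1, 32.0, 28.6 and 31.7 CPM, against 16.9, 12.0, 14.4 and 16.5 CPM. In both lots the female libraries were all above the male ones. In lot 11 the female libraries had 3.01, 3.14, 5.56 and 6.51 CPM, against 26.5, 15.7, 26.5 and 24.0 CPM in the male ones. In lot 12 they had 1.49, 4.31 and 1.85 CPM, against 11.8, 7.27 and 13.7 CPM in the male ones. In these 2 lots the female libraries were all below the male ones, while in lot 8 the groups overlapped, with 7.39, 6.97, 9.27 and 9.49 CPM in the female and 8.85, 9.82, 11.9 and 14.6 CPM in the male libraries.

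The fold changes of Fgf7 were 0.93 ± 0.28, 1.11 ± 0.25, -0.44 ± 0.26, -2.35 ± 0.27 and -2.08 ± 0.33 on the log2 scale in lots 6, 7, 8, 11 and 12. Its signs were those of Alkal1 in every lot, although the sizes differed. The female lines covered a wider band than the male lines, at 2.55 to 34.7 CPM, against 10.9 to 23.2 CPM in the male ones. The fibroblast and mesenchymal list, whose cells are the classical source of Fgf7, had sums of 197, 219, 789, 353 and 565 CPM in female lines, against 792, 134, 494, 447 and 1000.5 CPM in male lines, in lots 6, 7, 8, 11 and 12. The list was higher in the line with more Fgf7 in lots 7, 11 and 12 and lower in it in lots 6 and 8, and its part in the level of Fgf7 was not tested. Ptchd4 (r = 0.88), Tusc3 (r = 0.87) and Trnau1ap (r = 0.87) were the genes most like it.

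Vegfa drives the growth and leakiness of vessels through the receptors Flt1 and Kdr and is raised in many cells by low oxygen. It lies on chromosome 17 at 46016993 to 46032369 on the minus strand. In lot 7 the female libraries had 5.27, 5.07, 5.62 and 20.8 CPM, against 0.770, 0.722, 1.74 and 2.91 CPM in the male libraries, so that replicate 4 of the female line stood far above its 3 sister libraries. That library is one of the 6 low in mitochondrial mRNA, and replicate 4 had the highest Vegfa of its line in both lines of lot 7, the lot 8 male line and the lot 11 female line, but not in the lot 8 female and lot 11 male lines. The part of this in the level of Vegfa was not tested. In lot 6 the female libraries had 8.59, 5.61 and 4.85 CPM, against 4.63, 1.24 and 4.03 CPM in the male ones. The libraries of the sexes did not overlap in either lot, and they overlapped in lots 8, 11 and 12. On the log2 scale, Vegfa differed by 0.94 ± 0.60, 2.56 ± 0.55, -0.35 ± 0.55, -0.52 ± 0.52 and 0.069 ± 0.60 in lots 6, 7, 8, 11 and 12. The lot 7 value was 1.77 without female replicate 4 and 2.29 without all 6 libraries low in mitochondrial mRNA, and without lot 7 the fold change over lots was 0.022 in place of 0.49. Over the 10 lines, Vegfa was more like Alkal1 (r = 0.66, Spearman rho = 0.79) than like any other ligand of the set, and the genes most like it were Dtnbp1, Surf4 and Tmem185a (r = 0.89 to 0.93).

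The upstream sequences of Fgf7 and Vegfa, which were both higher in the female lines of lots 6 and 7, are set beside that of Pdgfc, whose line means spanned 1.64-fold. They are 250 bases that end at the start of the gene in RefSeq, build GRCm38.p6, of a promoter table that held 7 of the 10 ligands, and the windows chosen overlap no annotated exon. They lie at chr2:126034408-126034657 on the plus strand for Fgf7, at chr17:46032378-46032627 on the minus strand for Vegfa and at chr3:81036166-81036415 on the plus strand for Pdgfc. Capitals mark the motifs found among 5 that were searched on both strands.
Fgf7 upstream: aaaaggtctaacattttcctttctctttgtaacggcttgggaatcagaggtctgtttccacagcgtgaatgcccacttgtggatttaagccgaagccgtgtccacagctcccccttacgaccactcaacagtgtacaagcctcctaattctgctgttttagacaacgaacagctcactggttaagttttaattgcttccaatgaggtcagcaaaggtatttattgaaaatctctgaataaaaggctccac
Vegfa upstream: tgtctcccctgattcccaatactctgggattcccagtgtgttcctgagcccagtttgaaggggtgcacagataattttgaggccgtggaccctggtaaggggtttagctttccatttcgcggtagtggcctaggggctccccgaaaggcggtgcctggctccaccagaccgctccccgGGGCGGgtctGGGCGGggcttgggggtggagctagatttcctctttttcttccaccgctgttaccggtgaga
Pdgfc upstream: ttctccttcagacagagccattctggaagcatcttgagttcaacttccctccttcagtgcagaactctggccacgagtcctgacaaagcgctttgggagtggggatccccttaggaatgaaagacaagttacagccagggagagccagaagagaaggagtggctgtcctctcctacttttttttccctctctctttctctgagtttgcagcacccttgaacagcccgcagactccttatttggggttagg
The motifs were AP-1 as TGANTCA, STAT as TTCNNNGAA, Sp1 as GGGCGG, the TATA box as TATAAA and the core of the hypoxia response element as ACGTG. None of the 5 was found in the windows of Fgf7 and Pdgfc. That of Vegfa held the Sp1 letters 2 times, from -72 to -67 and from -62 to -57, counted from the base before the start as -1, and the matches did not overlap another motif. Another Vegfa window, at chr17:46025164-46025413, overlaps an annotated exon and is not printed. It held the Sp1 letters 1 time and the hypoxia core 1 time. Of the 32851 promoters of the table, 32.7% held the Sp1 letters in the same 250 bases, 6.75% the AP-1 letters, 7.02% the STAT letters, 12.4% the TATA letters and 16.6% the hypoxia core.

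Fgf2, or basic fibroblast growth factor, leaves the cell without a classical signal peptide, binds heparan sulfate and is a mitogen for astrocytes and neural progenitors. It lies on chromosome 3 at 37348346 to 37410108 on the plus strand. It had few counts, and its libraries scattered. In lot 6 the female libraries had 0.256, 1.87 and 1.29 CPM, against 5.37, 1.06 and 10.3 CPM in the male ones. In lot 12 they had 6.58, 7.13 and 11.4 CPM, against 4.4, 6.41 and 4.31 CPM in the male ones. Lot 12 was the only one of the 5 lots without overlap of the libraries, and there the female ones were higher. On the log2 scale, Fgf2 differed by -2.30 ± 0.63, 0.26 ± 0.49, 1.20 ± 0.52, 0.81 ± 0.51 and 0.72 ± 0.56 in lots 6, 7, 8, 11 and 12. The lot 6 value was -1.49 without male replicate 3 and the lot 7 value 0.88 without male replicate 3 of that lot. Over all lots the fold change was 0.21, and 0.73 without lot 6.

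Nudt6 and the antisense transcript Fgf2os overlap Fgf2 on the other strand and had 125 and 46 counts in all libraries, against 1038 for Fgf2. The strand setting of the counting is not given in the sources used here, so a share of these reads could belong to either strand. The 3 genes most like Fgf2 over the 10 lines, Tm9sf2 (r = 0.94), Mapk8 (r = 0.92) and Ktn1 (r = 0.92), lie on chromosome 14, and Fgf2 does not. Their rank correlations with Fgf2 were lower, at 0.88, 0.68 and 0.78, and none of the 3 was among the first 3 by rank. The 158 genes of chromosome 14 whose log2 CPM averaged 4 or more had a median log2 fold change of -0.83, 0.089, 0.18, 0.066 and 0.078 in lots 6, 7, 8, 11 and 12. These signs are those of Fgf2 in each lot, and a link between Fgf2 and chromosome 14 was not tested.

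Pdgfa, Pdgfb and Pdgfc encode chains of platelet-derived growth factor, which pair into dimers. Chains A and C act mainly through the receptor Pdgfra, while chain B also acts through Pdgfrb, and chain C is released by proteases such as plasmin and tissue plasminogen activator. Pdgfb lies on chromosome 15 at 79995874 to 80014977 on the minus strand. Its lot 6 female libraries had 0, 0.576 and 0.286 CPM, from 6 counts in all, against 3.15, 1.95 and 3.14 CPM in the male ones. In lot 7 the female libraries had 2.73, 2.62, 1.56 and 3.19 CPM, against 6.47, 3.32, 5.39 and 5.95 CPM in the male ones. In lot 8 the female libraries had 3.58, 6.75, 3.45 and 5.45 CPM, against 0.632, 1.54, 0.382 and 2.67 CPM in the male ones. The female libraries were thus all below the male ones in lots 6 and 7, and all above them in lot 8. Libraries overlapped in lot 11, at 3.34, 3.14, 4.34 and 6.98 CPM in the female and 1.58, 2.24, 3.41 and 2.49 CPM in the male ones. They also overlapped in lot 12, whose lines had the highest means, 6.31 ± 0.358 CPM in the female and 6.46 ± 2.55 CPM in the male line (SD, n = 3 each). The log2 fold changes of Pdgfb were -3.20 ± 0.67, -1.06 ± 0.46, 1.85 ± 0.49, 0.87 ± 0.46 and -0.031 ± 0.50 in lots 6, 7, 8, 11 and 12.

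Pdgfa lies on chromosome 5 at 138976014 to 138997370 on the minus strand. Its lowest line mean, 91.0 CPM, was that of the lot 12 male line, and its highest, 153 CPM, that of the lot 7 male line, a span of 1.69-fold. In lot 7 the female libraries had 91.4, 106, 119.8 and 109.7 CPM, against 151, 165, 144 and 154 CPM in the male ones. In lot 6 they had 148, 147 and 127 CPM, against 109.9, 124 and 89.0 CPM in the male ones. The female libraries were all lower in lot 7 and all higher in lot 6, at log2 fold changes of -0.52 ± 0.13 and 0.39 ± 0.15, and the groups overlapped in the other 3 lots, at 0.082 to 0.28. An antisense transcript, 6330403L08Rik, had 301 counts against the 25551 of Pdgfa. The genes most like Pdgfa over the lines were Coq5 (r = 0.92), Met, which encodes the receptor of Hgf (r = 0.89), and Psmd13 (r = 0.89). For Pdgfc they were Ibtk, Ufm1 and Vma21 (r = 0.84 to 0.85).

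Pdgfc lies on chromosome 3 at 81036416 to 81214040 on the plus strand, and its line means spanned 1.64-fold. The lot 7 female libraries stood out, with 28.1, 27.8, 34.3 and 31.2 CPM, against 20.8, 16.2, 14.9 and 22.1 CPM in the male ones, a log2 fold change of 0.71 ± 0.18. In the other 4 lots it was -0.31 ± 0.20, -0.46 ± 0.18, 0.0036 ± 0.18 and 0.23 ± 0.20 in lots 6, 8, 11 and 12. The SD of log2 CPM over the lines was 0.24 for Pdgfa and 0.23 for Pdgfc, against a median of 0.36 over all genes.

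Hbegf encodes a ligand of Egfr and Erbb4 that sits in the membrane until a protease sheds it. It lies on chromosome 18 at 36504927 to 36515805 on the minus strand, and its line means ran from 408 CPM in the lot 11 male line to 1021 CPM in the lot 8 female line. In lot 8 the female libraries had 994, 997, 1161 and 934 CPM, against 513, 553, 486 and 462 CPM in the male ones. In lot 11 the female libraries had 662, 621, 532 and 594 CPM, against 428, 395, 386 and 425 CPM in the male ones. In both lots every female library was above every male library. In lots 6 and 7 the order was the other way round. The lot 6 female libraries had 483, 393 and 407 CPM, against 572, 516 and 590.5 CPM in the male ones, and the lot 7 female libraries 617, 632, 721 and 573 CPM, against 765, 831, 1062 and 767 CPM. In lot 12 they overlapped, at 754, 1062 and 639 CPM in the female and 487, 711 and 423 CPM in the male libraries, and the fold change was 0.36 without female replicate 2.

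The log2 fold changes of Hbegf were -0.39 ± 0.15, -0.43 ± 0.13, 1.02 ± 0.13, 0.56 ± 0.13 and 0.60 ± 0.15 in lots 6, 7, 8, 11 and 12. On library totals in place of TMM-scaled sizes, the lot 6 value was -0.17. Over lots, the 5 female lines had a mean of 701 ± 226 CPM, against 574 ± 168 CPM for the 5 male lines (SD over line means). Over the 10 lines, Hbegf went with Fgf2 (r = 0.70) and Pdgfb (r = 0.65), and Fgf2 with Pdgfb (r = 0.91). The rank correlation of this last pair was lower, at 0.61. Fgf7 ran against Pdgfb (r = -0.64), Fgf2 (r = -0.59) and Hbegf (r = -0.52). The genes most like Hbegf were Tmtc4, Msi2 and Phrf1 (r = 0.88 to 0.91), and Tubb2b (r = 0.98) and Plin3 (r = 0.96) were among those most like Pdgfb.

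Hgf, the ligand of Met, had 2 counts in all, both in replicate 1 of the lot 6 female line, and did not pass the expression filter. In each of the other libraries a count of 0 allows a level of up to 3 counts. The gene lies on chromosome 5 at 16553495 to 16620152 on the plus strand.

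Of the 10 ligands, 9 were fitted within lots. The share of all genes with an adjusted p under 0.05 was 27.6%, 10.8%, 11.4%, 4.33% and 3.8% in lots 6, 7, 8, 11 and 12. Of the 9 ligands, 3 higher and 3 lower in the female line passed in lot 6 (13.5% and 14% of all genes) and 4 and 2 in lot 7 (5.41% and 5.42%). Lot 8 had 2 and 1 (6.41% and 4.99%), lot 11 had 1 and 3 (1.52% and 2.81%), and lot 12 had 1 and 2 (1.74% and 2.06%). Since the genes were chosen with these values known, nothing is read from that. Libraries of both lines did not overlap for 7, 7, 3, 4 and 4 of the 9 in lots 6, 7, 8, 11 and 12, and for 42.6%, 16.1%, 16%, 10.3% and 16.5% of all genes. For 5 of the 9 they did not overlap in opposite directions in at least a pair of lots, against 11.5% of all genes, and nothing is read from that either. The median log2 fold change over the 9 was -0.31, 0.26, -0.35, 0.0036 and 0.069 in lots 6, 7, 8, 11 and 12, against medians of 0.063, 0.0066, 0.0046, -0.0097 and 0.0086 over all genes. In lot 12 none of the 9 passed when its libraries were fitted alone without a block, and 3 passed with the replicate number as a block, Alkal1, Fgf7 and Hbegf, the same as in the joint fit. On library totals in place of TMM-scaled sizes, the genes called higher and lower in the female line numbered 2444 and 1105 in lot 6 (against 1644 and 1710), 807 and 534 in lot 7 (659 and 660), 1017 and 465 in lot 8 (780 and 608), and 274 and 205 in lot 12 (212 and 251). Across lots no gene passed (0%), with 841 genes at an unadjusted p under 0.05. With 5 lines per sex, a gene that did not pass across lots is not thereby shown to be equal between the sexes. DESeq2 called 60 of 12010 genes there, and Kitl was the only one of the 9 ligands among them. Nothing is read from that call, since the ligands were chosen with these values known and Kitl did not pass in the main fit.

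**Figure D4:**
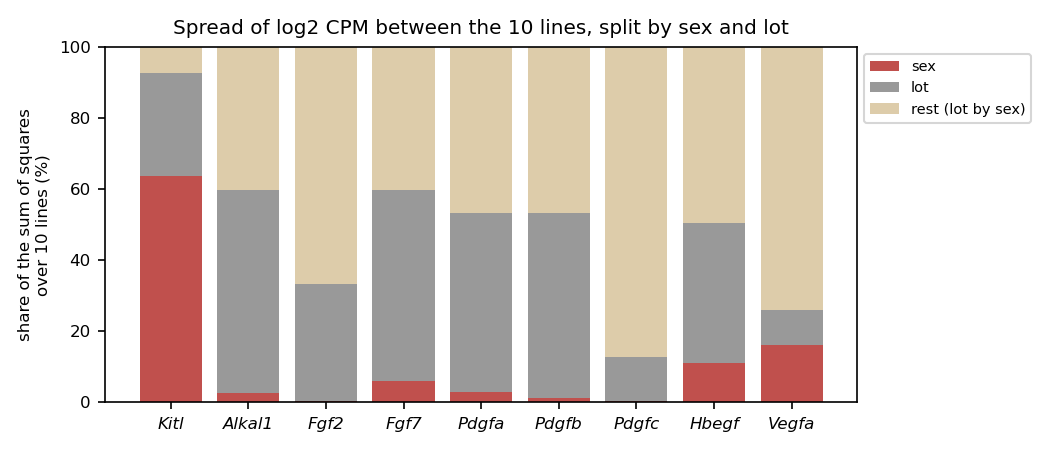
Share of the sum of squares of log2 CPM over the 10 lines (vertical axis, in percent) that falls to sex (red), to lot (grey) and to the rest, the difference of the sexes between lots (tan), for 9 ligands. Sex takes 63.8% for Kitl and 0.496% to 16.2% for the others.

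Any difference among the 10 lines was called for 51.8% of all genes. The spread between lines was split in different ways for the ligands. For Kitl 63.8% went with sex, 28.9% with the lot and 7.29% with neither alone. For Alkal1 and Fgf7 the lot took 57.1% and 53.5%, and the difference of the sexes between lots 40.2% and 40.4%. For Pdgfc, Vegfa and Fgf2 that last share was 87.3%, 74.0% and 66.6%, against a median of 36.3% over all genes.

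The receptors of these ligands were examined next, as a list of 17 genes. The choice of the ligands did not use their values. This list and those below were nevertheless chosen with earlier results of these data known, so their p-values are not those of an independent choice. Alk and Ltk, the receptors of Alkal1, had no count in any library, which allows up to 3 counts, or 0.397 to 0.688 CPM, in each library. Kit, the receptor of Kitl, had 8 counts in 3 libraries. Pdgfra had 73 counts in 19 libraries, with line means of 0.0545 to 1.29 CPM, Kdr 40 counts in 10 libraries, and Erbb4 5 counts in 2. Egfr, Fgfr1, Fgfr2, Pdgfrb, Met, Flt1 and Nrp1 were counted in all 36 libraries. Across the ligand and receptor pairs, Hbegf and Egfr, Pdgfb and Pdgfrb, Fgf2 and Fgfr1, and Vegfa and Flt1 were both present, while the receptors of Alkal1 had no count and that of Kitl had 8.

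**Figure D5:**
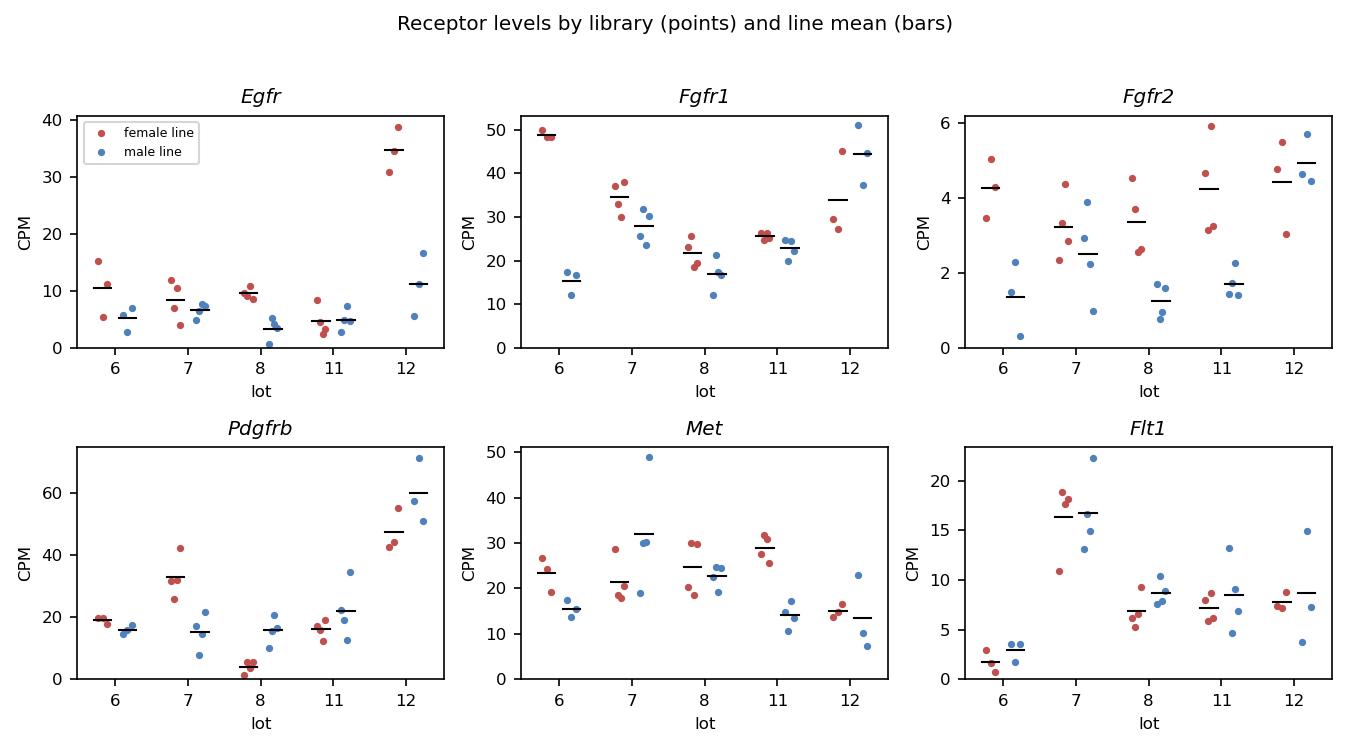
Levels of 6 receptors in CPM (vertical axes, each from 0) by lot (horizontal axis), with each library as a point, each line mean as a bar, female lines in red to the left of male lines in blue. Egfr is highest in the lot 12 female line, at 34.8 CPM, and Pdgfrb in both lines of lot 12.

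Of the 17 receptors, 9 could be tested. In lot 6, 3 rose and 1 fell in the female line (13.5% and 14% of all genes). Fgfr1, a receptor of Fgf2, was 48.9 ± 0.869 CPM in the female and 15.3 ± 2.89 CPM in the male line (SD, n = 3 each), a log2 fold change of 1.67 ± 0.20 (edgeR quasi-likelihood test, adjusted p = 2.95e-08). Nrp2, a co-receptor of the VEGF family, fell there by 2.01 on the log2 scale (adjusted p = 1.51e-07). Fgfr2 and Nrp1 rose by 1.66 and 0.71 on that scale (adjusted p = 0.0164 and 0.0335), and both calls were lost without 1 library, Fgfr2 without female replicate 2 or male replicate 3 and Nrp1 without female replicate 1 or 2 or male replicate 1 or 2.

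In lot 7 only Pdgfrb of the 9 receptors rose (5.41% of all genes), with 32.9 ± 6.86 CPM in the female and 15.3 ± 5.72 CPM in the male line (SD, n = 4 each, adjusted p = 0.00498). In lot 8 it fell, with 3.89 ± 2.03 CPM in the female and 15.7 ± 4.33 CPM in the male line (n = 4 each, log2 fold change -1.99 ± 0.32, adjusted p = 2.49e-05, 4.99% of all genes lower). The ligand Pdgfb ran the opposite way in these 2 lots, lower in the female line of lot 7 and higher in that of lot 8. Egfr rose in lot 8, with 9.55 ± 0.981 CPM in the female and 3.35 ± 1.96 CPM in the male line (n = 4 each, adjusted p = 0.0178), where its ligand Hbegf was higher too. That call was lost without male replicate 1 or without the 6 libraries low in mitochondrial mRNA, and that of Fgfr2 in the same lot (log2 fold change 1.40 ± 0.47, adjusted p = 0.0482) was lost without any 1 of 7 of its 8 libraries. In lot 11 Met rose by 1.05 on the log2 scale (adjusted p = 0.00919, 1.52% of all genes higher), except without male replicate 2. In lot 12 Egfr had 34.8 ± 3.96 CPM in the female and 11.1 ± 5.55 CPM in the male line (n = 3 each, adjusted p = 0.0283, 1.74% of all genes higher), a call lost without female replicate 2 or 3 or male replicate 1 or 2. Across lots none of the 9 passed, and Egfr had the smallest p, with a fold change of 0.87 ± 0.27 (adjusted p = 0.695) and higher means in 4 of 5 female lines.

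The difference between the sexes was itself unequal between lots for 5 of the 9 receptors, Nrp2, Fgfr1, Pdgfrb, Met and Nrp1, against 29.9% of all genes (edgeR quasi-likelihood F test over the 5 lots). For Fgfrl1, a receptor that lacks the kinase domain, the adjusted p of that test was 0.0593, for Egfr 0.0885, for Fgfr2 0.134 and for Flt1 0.851. Fgfrl1 passed in 7 of 40 alternatives and Egfr in 3 of 41, and those of Met and Nrp1 did not pass without the 6 libraries low in mitochondrial mRNA (adjusted p = 0.0684 and 0.0790).

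Other ligands of receptor tyrosine kinases were taken from a list of 44, of which 24 could be tested. In lot 6, 5 rose and 6 fell in the female line (13.5% and 14% of all genes). Gas6, the ligand of the Axl family, had 63.9 ± 2.20 CPM in the female and 0.884 ± 0.334 CPM in the male line (SD, n = 3 each, adjusted p = 3.61e-14), and Igf1, insulin-like growth factor 1, had 21.2 ± 4.07 and 0.966 ± 0.300 CPM there. The Egfr ligand Areg fell, with 14.7 ± 4.53 CPM in the female and 105 ± 5.56 CPM in the male line (adjusted p = 2.94e-08), and so did Artn, a ligand of the Ret receptor complex (log2 fold change -3.87 ± 0.61). In lot 7, 5 rose and 4 fell (5.41% and 5.42% of all genes), and 6 rose and 2 fell without the libraries low in mitochondrial mRNA. Igf1 and Fgf10, which is the nearest relative of Fgf7 and shares its receptor, rose, Fgf10 with 7.44 ± 1.66 CPM in the female and 0.107 ± 0.138 CPM in the male line (n = 4 each, adjusted p = 4.27e-05). The Egfr ligand Ereg fell there, with 2.67 ± 2.7 CPM in the female and 13.7 ± 3.29 CPM in the male line (adjusted p = 1.71e-04).

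In lot 8 none of the 24 rose and 3 fell (6.41% and 4.99% of all genes). On library totals 1 rose and 2 fell there, and 0 rose and 2 fell without the libraries low in mitochondrial mRNA. Csf1, which keeps microglia and macrophages alive, had 71.5 ± 7.00 CPM in the female and 143 ± 10.3 CPM in the male line (n = 4 each, adjusted p = 1.62e-05). Fgf5 had no count in the lot 8 female line and 2.91 ± 1.52 CPM in the male one, and the call of Fgf13 was lost without any 1 of 6 of its 8 libraries. In lot 11 none rose and 3 fell (1.52% and 2.81% of all genes). These were Bdnf, Csf1 and Areg, at log2 fold changes of -1.41 ± 0.25, -0.71 ± 0.16 and -1.29 ± 0.29 (adjusted p = 2.12e-04, 0.00282 and 0.00372). Areg did not pass there without the libraries low in mitochondrial mRNA, at -0.84 (adjusted p = 0.164). In lot 12 Igf1 alone of the 24 passed, with 46.7 ± 22.4 CPM in the female and 7.89 ± 2.80 CPM in the male line (n = 3 each, adjusted p = 3.44e-04, 1.74% of all genes higher). Across lots none of the 24 passed, and the smallest p-values were those of Fgf13, Igf1 and Angpt4 (each adjusted p = 0.695, fold changes -2.14 ± 0.35, 2.36 ± 0.61 and 1.76 ± 0.49).

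The proteases that release or activate these ligands, and their inhibitors, made up a list of 24 with 14 tested within lots. In lots 6, 7 and 8, 3, 3 and 4 rose in the female line and none fell, and in lot 11 none rose and 1 fell. Of all genes, 13.5%, 5.41%, 6.41% and 1.52% rose in lots 6, 7, 8 and 11, and 14%, 5.42%, 4.99% and 2.81% fell. Plat, tissue plasminogen activator, which cleaves Pdgfc, had 35.9 ± 5.64 CPM in the lot 6 female and 6.43 ± 1.17 CPM in the lot 6 male line (adjusted p = 4.75e-06). Mmp3, a matrix protease that can shed Hbegf, had 39.9 ± 15.3 CPM in the female and 0.168 ± 0.178 CPM in the male line of lot 6 (adjusted p = 1.36e-06), and it rose in lot 7 as well (adjusted p = 0.00103). The fall of Adam10 in lot 11 rested on male replicate 1, and its fold change was -0.46 without it, in place of -1.98 ± 0.48. With the 6 libraries low in mitochondrial mRNA left out, 2 proteases or inhibitors rose and 0 fell in lot 7, and 4 rose and 1 fell in lot 8. Across lots none of the 12 tested there passed.

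Heparan sulfate proteoglycans and the enzymes that build them hold Fgf2, Fgf7, Hbegf and the longer forms of Vegfa at the cell surface. Of 27 genes listed, 23 were tested. In lot 6, 11 rose and 1 fell in the female line (13.5% and 14% of all genes), with a median log2 fold change of 0.82 over the list and 0.063 over all genes. On library totals alone, the medians in lot 6 were 1.04 over the list, with 12 higher and 1 lower, and 0.29 over all genes. Sdc2 rose, with 192 ± 12.1 CPM in the female and 106 ± 2.89 CPM in the male line (n = 3 each, adjusted p = 9.71e-06), as did the sulfotransferase gene Hs6st2 (log2 fold change 1.60 ± 0.22), and Sdc1 fell (log2 fold change -1.29 ± 0.18). In lots 7, 8, 11 and 12, 1, 5, 1 and 0 rose and 1, 1, 1 and 2 fell, and without the libraries low in mitochondrial mRNA none passed in lot 11. Of all genes, 5.41%, 6.41%, 1.52% and 1.74% rose in these 4 lots, and 5.42%, 4.99%, 2.81% and 2.06% fell. Col18a1, the precursor of endostatin, fell in lot 7 (3.99 ± 1.02 CPM in the female and 48.5 ± 5.36 CPM in the male line, n = 4 each, adjusted p = 1.08e-12) and in lot 12 (adjusted p = 1.27e-06), and it rose in lot 8 (adjusted p = 2.54e-06). Across lots none of the 23 passed.

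Hypoxia-inducible factor (HIF) drives Vegfa and many other genes, of which 22 were listed and all 22 were tested within lots. Of these, 3 rose and 4 fell in lot 6, 2 rose in lot 7, 3 rose and 1 fell in lot 8, and none passed in lot 11. Of all genes, 13.5%, 5.41%, 6.41% and 1.52% rose in lots 6, 7, 8 and 11, and 14%, 5.42%, 4.99% and 2.81% fell. Adm fell in lot 12 (2.06% of all genes lower), a call lost when that lot was fitted alone with the replicate block. In lot 7 the list had a median log2 fold change of -0.058. The 2 that rose in lot 7 were Adm, which encodes adrenomedullin, with 9.03 ± 2.40 CPM in the female and 1.93 ± 0.375 CPM in the male line (n = 4 each, adjusted p = 6.08e-07), and Ndrg1 (adjusted p = 0.00233). Adm was far apart in lot 6, with 156 ± 12.4 CPM in the female and 2.48 ± 0.330 CPM in the male line (n = 3 each, adjusted p = 2.17e-16). Bnip3l and Hk2 fell in lot 6 (log2 fold changes -1.45 ± 0.29 and -1.27 ± 0.28, adjusted p = 1.86e-04 and 6.24e-04). With the 6 libraries low in mitochondrial mRNA left out, 4 HIF targets rose and 4 fell in lot 6, and 2 rose and 1 fell in lot 8. Across lots none of the 21 tested there passed.

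Transcriptional targets of ERK, the kinase at the end of the pathway these ligands start, were 19 genes, all of them tested. In lot 6, 2 rose and 7 fell in the female line (13.5% and 14% of all genes). On library totals, 3 rose and 5 fell in lot 6, and 3 rose and 1 fell in lot 8. In lot 6 the list had a median log2 fold change of 0.11, against 0.063 over all genes. Phlda1 had 73.7 ± 2.14 CPM in the female and 166 ± 8.56 CPM in the male line (n = 3 each, adjusted p = 1.20e-06), Ier3 and the ERK phosphatase gene Dusp5 fell, and Spry1, a feedback inhibitor of receptor tyrosine kinases, rose (log2 fold change 2.74 ± 0.61, adjusted p = 6.16e-04). In lot 7, 1 rose and 4 fell (5.41% and 5.42% of all genes). Among those that fell was Ccnd1, which encodes cyclin D1 (164 ± 31.5 CPM in the female and 365 ± 38.2 CPM in the male line, n = 4 each, adjusted p = 4.00e-07). Without the libraries low in mitochondrial mRNA, 3 rose and 7 fell in lot 6, 0 rose and 3 fell in lot 7, and 2 rose and 1 fell in lot 8. In lot 8, 2 rose and 2 fell (6.41% and 4.99% of all genes). There Ccnd1 and Ier3 rose (adjusted p = 0.00583 and 2.88e-04) and Dusp4 fell (adjusted p = 5.84e-05). Ier3 and Ccnd1 had in lots 7 and 8 the signs of Hbegf. Epha4 had the opposite signs, at log2 fold changes of 1.21 ± 0.38 in lot 7 and -1.31 ± 0.43 in lot 8. The sign of Dusp4 in lot 8 was also opposite to that of Hbegf, at -1.65 ± 0.28. The part of Hbegf in the levels of these genes was not tested. In lot 11 Ccnd1 alone of the 19 passed (1.52% of all genes higher), a call lost without 1 library in 5 of 8 cases, and in lot 12 none passed. No ERK target passed across lots.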

How the data were processed

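BRB-seq counts of 36 libraries from 10 lines were analysed. Raw counts by Ensembl gene were deposited, per the labels, and all values were whole. The tools named in the submitters' processing notes are STAR 2.7.6a, Subread 2.0.2 and cutadapt 2.10, with GRCm38 as the build. The labels' protocols describe molecular identifiers, but whether they were collapsed is not given in the sources used here, so counting limits cover counting error only. Of 46078 identifiers, 45229 were matched to GENCODE release M21, and the others held 0.0295% of the counts. All 48 pairs of libraries of 1 line differed, and none was identical. Groups came from the labelled lot and sex.

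Levels are CPM on TMM-scaled library sizes. Tests used edgeR 4.0.16 in R 4.3.3, with its expression filter, TMM, the quasi-likelihood method and Benjamini-Hochberg adjustment at 0.05. Across lots, counts were summed by line, and the 10 sums were modelled by lot and sex. Within lots, each line had its own coefficient in a fit of all 36 libraries, which also gave the F test of unequal sex differences between lots. Nothing in the labels says that a line's libraries came from separate cultures, so these p-values measure only the spread between libraries, which may be technical. DESeq2 1.42.0 was an alternative, with other scalings, filters, replicate units, a replicate block and leaving out each library or lot, or the 6 libraries low in mitochondrial mRNA. The fits were also run on simulated counts. In these the lines differed only by the changes put in, so they do not test the fits against the spread between lines or lots. In lot 12, same-numbered libraries of the sexes deviated together, with residual correlations of 0.392 to 0.528 in 3 pairs, all over 0.1, so its numbers were taken to pair the libraries. In the other lots the same-numbered libraries did not meet that rule. The joint fit behind the p-values within lots had no replicate block, in lot 12 either, so those p-values do not use the pairing. A block was used only in the alternatives. Likeness is the Pearson correlation of log2 CPM (prior count 2) over 10 line sums, over 6407 genes with a mean of at least 3. Figures were drawn with matplotlib 3.10.9 in Python 3.11.15.

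The ligands and the gene lists were chosen with earlier results of these data known. All ligands and their main receptors were to be named. From each list, up to 4 genes per lot were taken by smallest p among those that passed, and 3 across lots, with 3 genes of highest likeness per ligand. Only some of the list genes taken by this rule are given with values, and some results are not reported here.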

Additional observations from a re-analysis of the deposited data

Results flagged for a closer look

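Of 72 groups of 4 libraries or 5 line means of the ligands, 4 held a value far from the others, where chance gives about 1 in 20. The lot 6 male line had a Kitl mean of 18.9 CPM, against 6.49 to 8.97 CPM in the other 4 male lines. The lot 12 male line had an Alkal1 mean of 16.3 CPM, against 0.558 to 3.38 CPM. The lot 7 female line had a Pdgfc mean of 30.4 CPM, against 19.2 to 22.0 CPM in the other 4 female lines. In the lot 7 female line, replicate 4 had 20.8 CPM of Vegfa, against 5.07 to 5.62 CPM in its 3 other libraries.

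For 5 ligands, all female libraries lay above all male libraries in at least 1 lot and below them in another, as did 11.5% of all genes. No p-value is given for the difference between the lots, since the ligands were chosen with these values known. The log2 fold changes of female over male were 5.26 in lot 6 and -3.18 in lot 11 for Alkal1, 1.11 in lot 7 and -2.35 in lot 11 for Fgf7, and 0.39 in lot 6 and -0.52 in lot 7 for Pdgfa. They were 1.85 in lot 8 and -3.20 in lot 6 for Pdgfb, and 1.02 in lot 8 and -0.43 in lot 7 for Hbegf.

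For 5 of 9 receptors the test of the difference itself passed (edgeR quasi-likelihood F test over the 5 lots). The adjusted p was 6.46e-06 for Fgfr1, 8.27e-06 for Pdgfrb, 0.00662 for Met, 0.0292 for Nrp1 and 8.23e-07 for Nrp2. Under 41 alternatives each, the adjusted p stayed at 9.34e-05 or less for Fgfr1, 4.01e-05 or less for Pdgfrb and 2.34e-05 or less for Nrp2. That of Met was above 0.05 in 1 of them, at 0.0684, and that of Nrp1 in 5, up to 0.0868.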

How the results depend on the processing

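Across lots, the count of genes called was 0 in the 10 sums, 3 with no filter, 1 with no lot term, 60 with DESeq2 and 1269 with the 36 libraries as replicates, 1 without the 6 libraries low in mitochondrial mRNA, and 0 without any 1 lot. That removal, chosen after seeing the data, gave 878 genes in lot 7, against 1319. Kitl passed only with DESeq2 and with 36 libraries, at -1.38 and -1.36 in that order. Nothing is read from these calls, since Kitl was chosen with its levels known. The 36 libraries come from 10 lines and are not independent replicates of a sex. Lot 12 fitted alone gave 106 genes without the replicate block and 665 with it, against 463. The block gave 3287, 1529, 1579 and 658 genes in lots 6, 7, 8 and 11, whose libraries did not meet the pairing rule. Lot 6 Fgf2 lost its call under the block. In lot 11 the same-numbered libraries nevertheless correlated at 0.0955 to 0.253, against at most 0.0806 in other pairs. The replicate 4 libraries of the sexes correlated at 0.265, 0.302 and 0.253 in lots 7, 8 and 11. Leaving out each library in turn gave 2639 to 2863 genes in lot 6, 974 to 1130 in lot 7, 1035 to 1318 in lot 8, 380 to 491 in lot 11 and 228 to 731 in lot 12. It gave 3270 to 3796 for differences of the sexes between lots and 6028 to 6474 for any difference among lines. The low lot 12 counts were 281 without female replicate 3, 228 without male replicate 1 and 265 without male replicate 2, and the high one was 731 without male replicate 3. By Spearman correlation, 9 of the 27 genes most like a ligand by Pearson correlation were among the first 3.

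Of 672 fold changes of the ligands within lots under other settings, 26 lost and 7 gained the call, and none changed sign while called. Without the 6 libraries, Pdgfa in lot 6 and Hbegf in lot 7 lost theirs. Calls were also lost for Pdgfa in lot 6 in 4 of the 6 cases that left out a library, for Fgf7 in lot 6 without female replicate 2 or male replicate 1, for Hbegf in lot 7 in 4 of 8 and in lot 12 in 3 of 6, and for Alkal1 in lot 12 in 4 of 6 and on library totals. On library totals, 5 HIF targets rose and 3 fell in lot 6, and 6 of the other ligands rose and 5 fell. Of all 12173 genes, 2444 rose and 1105 fell in lot 6 by that scaling. With few counts, the standard errors of the log2 fold changes within lots were 0.46 to 0.67 for Fgf2, Vegfa and Pdgfb.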
